A study of Homo sapiens with 4 samples.

Results

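The genes of 8 nuclear receptors that partner PPARG or work beside it were examined for PPARG binding in NCI-H1993 and NCI-H2347, 2 established lines from human lung adenocarcinoma. The genes were RXRA, PPARA, PPARD, NR1H3, VDR, RARA, NR1D1 and NR2F2. A peak counted for a gene when its midpoint lay inside the gene's hg19 span or within 100 kb of it, and the spans were known to the nearest kb. In all, 12 of 3644 peaks met this rule, 3 of 1419 in NCI-H1993 and 9 of 2225 in NCI-H2347. Both lines carried a BAC transgene, a large genomic fragment that here encoded PPARG fused to the EGFP-containing LAP tag, and chromatin was precipitated with a goat antibody to EGFP. The peaks are therefore those of the tagged protein. The labels state neither a drug treatment nor whether each line was a single clone. There was 1 ChIP library per line, so no value below has a replicate check, no test between the lines was made, and how deeply each library was sequenced is unknown. The input library of each line was not analysed here.

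PPARG is a ligand-activated transcription factor that binds DNA as a heterodimer with a retinoid X receptor such as RXRA. The usual site is a direct repeat of the hexamer AGGTCA with 1 base between the copies, called DR1. Other receptors use the same hexamer with other spacings or as a single copy, and several of them, including NR1H3, VDR and RARA, also need a retinoid X receptor. In adipocytes and macrophages PPARG is known to act on the genes of other receptors, and NR1H3 is the best-known example.

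PPARG peaks were present near 6 of the 8 receptor genes, and the sets of genes differed between the lines. NCI-H1993 had peaks at NR1H3 and NR2F2. NCI-H2347 had peaks at PPARD, NR1H3, VDR, RARA and NR1D1. NR1H3 was the 1 gene with a peak in both lists. RXRA and PPARA had no peak within 100 kb in either list. In NCI-H1993, 2 of 8 genes (25%) had a peak, against 10.0% of 11179 adjoining windows of 256 kb, the median width of the 8 gene windows, laid along the chromosomes. In NCI-H2347, 5 of 8 (62.5%) had a peak, against 14.3% of these windows. A peak of both lists was held by 1 of 8 gene windows and by 5.04% of the 256 kb windows, and a peak of either list by 6 of 8 and by 19.3%. The 8 gene windows covered 2.05 Mb and held 1.46 peaks per Mb in NCI-H1993 and 4.38 in NCI-H2347, where the values along the chromosomes were 0.488 and 0.769. The 256 kb windows include regions with few genes and gaps in the assembly, and whether other genes also stand above them was not tested. The wider surroundings of the 5 NCI-H2347 genes also held more peaks than the mean window. Within 1000 kb, counting the peaks above, NCI-H2347 had 9 at PPARD, 3 at NR1H3, 7 at VDR, 7 at RARA and 8 at NR1D1. Windows of 2056 kb held 1.58 on average. This comparison is uneven, since the 5 genes were picked for holding a peak and 42.1% of these windows held none. The surroundings of RARA and NR1D1 overlap, so their counts share peaks. RXRA, PPARA and NR2F2 had 0, 2 and 0. An excess at the receptor genes was thus not separated from one of their regions.

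**Figure D1:**
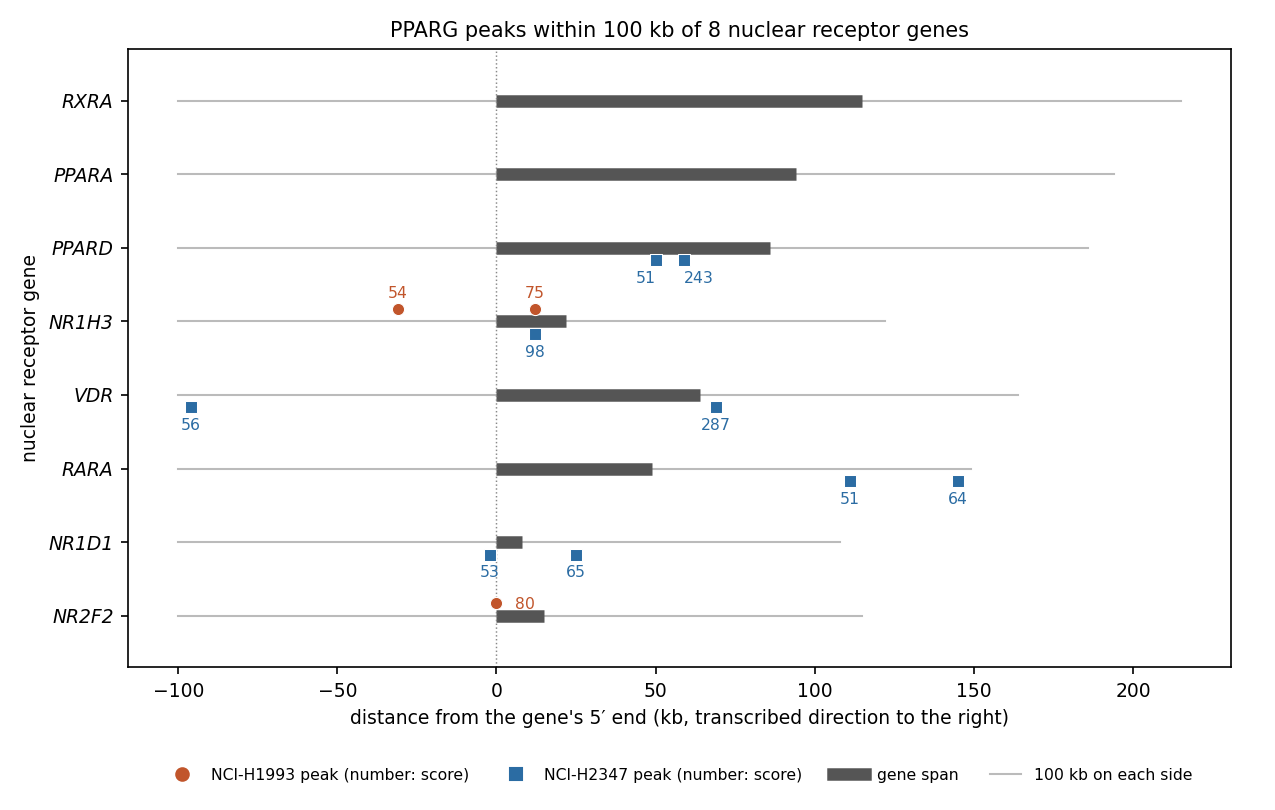
Position of the 12 peaks relative to each receptor gene. The horizontal axis is the distance in kb from the gene's 5′ end, thick bars are gene spans, thin lines the 100 kb on each side, circles NCI-H1993 peaks and squares NCI-H2347 peaks, with the score beside each. RXRA and PPARA have no symbol, and NR1H3 has a circle and a square at the same place inside the gene.

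RXRA encodes retinoid X receptor alpha, a DNA-binding partner of the PPARs. Its nearest peak in NCI-H1993 was 497 kb from the span, at chr9:136720823-136721405, and scored 51.97. In NCI-H2347 the nearest peak was 1090 kb away, at chr9:136127508-136128234, with a score of 91.4. Within 1000 kb of the gene there was 1 peak in NCI-H1993 and 0 in NCI-H2347. Windows of 2056 kb along the chromosomes, about the same width, held 1 and 1.58 peaks on average in the 2 lists, and 50.6% of them had no NCI-H1993 peak and 42.1% no NCI-H2347 peak. The 1 NCI-H1993 peak thus matched the mean of these windows, and a count of 0 was common among them in NCI-H2347. These windows include regions with few genes and gaps in the assembly, and no comparison with surroundings of genes in general was made. A site under the authors' threshold would not appear in the lists, so the lack of a peak near RXRA does not show that the gene is unbound.

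PPARA and PPARD encode the other members of the PPAR family, which recognise the same DR1 element. PPARA is best known for fatty acid oxidation in liver, and PPARD is expressed broadly. The nearest PPARA peak in NCI-H1993 lay 666 kb from the span, at chr22:45879799-45880608, with a score of 149.48. In NCI-H2347 it lay 407 kb away, at chr22:46138527-46139212, with a score of 57.46. Both PPARA peaks were on the 5′ side of the gene, and neither had an overlapping peak in the other list.

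PPARD held 2 NCI-H2347 peaks inside its span, a strong one and a weak one. The strong peak, at chr6:35368376-35369909, lay about 59 kb downstream of the 5′ end and scored 242.64, which ranked 119 of 2225 peaks. It was 1534 bp wide, the widest of the 12 receptor gene peaks. The weak peak, at chr6:35360054-35360767, lay 8.73 kb closer to the 5′ end and scored 50.7, close to the lowest score in the list, 50.05. In NCI-H1993 the nearest peak was 546 kb beyond the 3′ end of the gene, at chr6:35941156-35941957, with a score of 118.49. Of the 2 other PPAR genes, PPARD thus had peaks in 1 line and PPARA in neither.

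NR1H3 encodes LXR alpha, an oxysterol receptor that forms heterodimers with retinoid X receptors and controls cholesterol efflux and fatty acid synthesis. It carried the 1 site that both lists shared. The NCI-H1993 peak was at chr11:47280777-47281280 with a score of 75.42, rank 608 of 1419. The NCI-H2347 peak was at chr11:47280615-47281365 with a score of 98.12, rank 758 of 2225. The narrower NCI-H1993 peak (504 bp) lay wholly within the wider one (751 bp), and the midpoints were 38.5 bp apart. This site was inside the gene, about 12 kb downstream of the 5′ end of the span. NCI-H1993 had a second peak 31 kb upstream of the 5′ end, at chr11:47237769-47238329, with a score of 53.52. RefSeq lists ACP2, a lysosomal acid phosphatase gene, and then DDB2, a DNA damage recognition gene, as the next protein-coding genes on that side. No NCI-H2347 peak overlapped the upstream peak, and the nearest was the shared site inside NR1H3, 42.9 kb away.

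RefSeq gives 4 start sites for NR1H3. The 250 bases before the third of them in genome order are shown. The windows of the earlier starts overlap ACP2, and the window of the last start overlaps the exon of the third. The window shown is chr11:47257457-47257706 on the plus strand of GRCh38.p14. The peaks are on hg19, so whether a peak covers it was not determined.
NR1H3: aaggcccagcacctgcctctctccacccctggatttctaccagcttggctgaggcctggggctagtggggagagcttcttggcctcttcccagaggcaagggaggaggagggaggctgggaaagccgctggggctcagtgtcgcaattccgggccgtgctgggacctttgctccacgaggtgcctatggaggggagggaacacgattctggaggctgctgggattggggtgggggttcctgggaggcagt
AGGTCA does not occur in this window on either strand, so no letter is in capitals. Of 35116 RefSeq windows of this length, 12.1% hold it.

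VDR encodes the vitamin D receptor, which pairs with retinoid X receptors on repeats spaced by 3 bases. It had the highest-scoring peak of the 12, an NCI-H2347 peak at chr12:48229307-48230067 with a score of 287.42, rank 67 of 2225. That peak lay 5 kb beyond the 3′ end of the gene, on the side where RefSeq lists HDAC7, a class II histone deacetylase gene, as the next protein-coding gene. A second NCI-H2347 peak, at chr12:48394794-48395353, lay 96 kb upstream of the 5′ end and scored 56.13. On that side TMEM106C and then COL2A1, the type II collagen gene, are the next listed genes. The nearest NCI-H1993 peak was 1373 kb from the gene, at chr12:46861932-46862451, with a score of 65.07. Within 1000 kb of VDR NCI-H2347 had 7 peaks and NCI-H1993 had 0. Of windows of 2056 kb along the chromosomes, 50.6% had no NCI-H1993 peak and 31.1% had peaks of 1 list only.

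RARA encodes retinoic acid receptor alpha, which also pairs with retinoid X receptors. Its 2 NCI-H2347 peaks were both far beyond the 3′ end and both weak. The nearer one was 62 kb from the span, at chr17:38575673-38576366, with a score of 50.58. The farther one was 96 kb away, at chr17:38609339-38609720, with a score of 64.07 and a width of 382 bp, the narrowest of the 12. RefSeq lists GJD3, a gap junction gene, and TOP2A, the proliferation-linked topoisomerase II alpha gene, as the next protein-coding genes on that side. The nearest NCI-H1993 peak was 545 kb from the span, at chr17:39058201-39058962, with a score of 65.88.

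NR1D1 encodes REV-ERB alpha, a haem-binding repressor of the circadian clock that is also induced during adipocyte differentiation. It lies close to RARA on chr17, with spans at 38249-38257 kb for NR1D1 and 38465-38514 kb for RARA. The 100 kb windows of both genes do not overlap, but their peaks come from the same region and are not independent of each other. An NCI-H2347 peak at chr17:38259136-38259652 lay about 2 kb upstream of the 5′ end, with a score of 53.15, at percentile 10.5 of its list. A second peak, at chr17:38231494-38232110, was 17 kb beyond the 3′ end and scored 65.23. On that side lies THRA, the thyroid hormone receptor alpha gene, whose 3′ end is known to overlap that of NR1D1. THRA was the 1 direct neighbour of a receptor gene among 26 other nuclear receptor and coregulator genes listed for this comparison, whose hg19 positions were not used here. The nearest NCI-H1993 peak to NR1D1 was 802 kb away and was the same peak that was nearest to RARA. Both genes on this chromosome thus had 2 peaks in NCI-H2347, all 4 with scores under the list's median of 77.11.

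The NR1D1 promoter is shown because the 5′ end of this gene had a peak beside it and because its promoter is known as a target of nuclear receptors. An imperfect direct repeat in it, through which NR1D1 represses its own gene and PPARA activates it, is background knowledge and was not measured here. The 250 bases before the RefSeq start are chr17:40100590-40100839 on the minus strand of GRCh38.p14, printed in the transcribed direction. Capitals mark the match to GNGNCANNGNGNCA, a loose form of a hexamer repeat spaced by 2 bases, that begins 145 bases before the start.
NR1D1: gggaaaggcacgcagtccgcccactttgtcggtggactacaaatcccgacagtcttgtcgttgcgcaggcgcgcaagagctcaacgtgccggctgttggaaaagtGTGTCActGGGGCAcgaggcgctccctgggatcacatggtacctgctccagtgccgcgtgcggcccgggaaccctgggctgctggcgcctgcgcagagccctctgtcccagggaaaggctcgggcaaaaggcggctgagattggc
The loose pattern was written after this sequence had been read, and 1.35% of the 35116 RefSeq windows hold it on either strand. The NCI-H2347 peak had its midpoint about 2 kb from the 5′ end of the hg19 span. It lay outside this window of 250 bases if the RefSeq start is that 5′ end. This was not checked, since no coordinate was converted.

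Exact hexamers were searched in the same way in the 15 windows that RefSeq gives for 7 of the receptor genes. AGGTCA was present in 2 of the 15, 140 bases before a start of NR1H3 and 230 bases before a start of RARA. It was in 12.1% of all 35116 windows, so no excess is read from this count. The DR1 repeat AGGTCANAGGTCA was in 0 of the 15 and in 0.0171% of all windows. The repeats with spacings of 2, 3, 4 and 5 bases were in 0 of the 15 as well, and in 0.00285%, 0.0057%, 0.0142% and 0.00285% of all windows. Both strands were read, each repeat contains the hexamer, and a window without a match says only that these letters are not in it.

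NR2F2 encodes COUP-TFII, an orphan receptor known to compete for DR1 elements and to restrain adipogenesis. It had the highest-scoring receptor gene peak of NCI-H1993, at chr15:96869067-96869654, with a score of 80.11, rank 542 of 1419. The peak was at the 5′ end of the span, in its first kb. Since spans are known to the nearest kb, whether the midpoint is inside the gene is uncertain. RefSeq's promoter table places both NR2F2 starts it lists farther inside the gene, so no NR2F2 promoter is shown. In NCI-H2347 the nearest peak was 1749 kb away on the 5′ side, at chr15:95119870-95120916, and scored 300.33. No NCI-H2347 peak lay within 1000 kb of NR2F2, where NCI-H1993 had 2. RXRA, VDR and NR2F2 each had peaks of only 1 of the lists within 1000 kb, as did 31.1% of the 2056 kb windows.

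**Figure D2:**
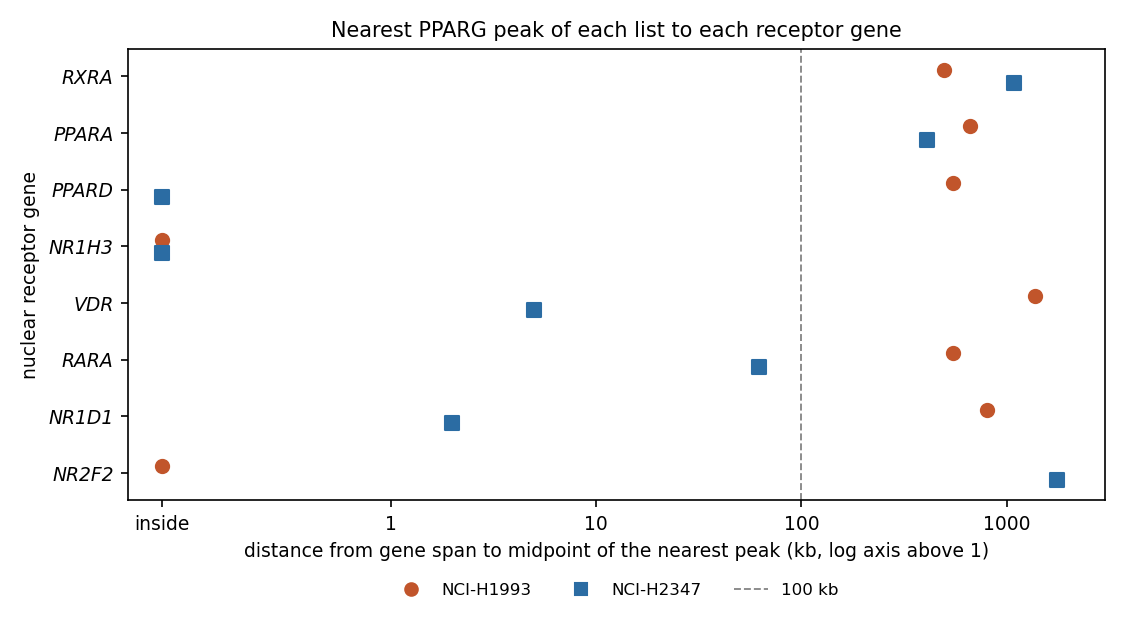
Distance in kb from each gene span to the midpoint of the nearest peak in NCI-H1993 (circles) and NCI-H2347 (squares), on an axis that is logarithmic above 1 kb. For the 5 genes with a peak in 1 line, the nearest peak of the other line is beyond the dashed line at 100 kb, between 545 and 1749 kb away.

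Where a receptor gene had a peak in 1 line, the other line's nearest peak was at a distance common along the chromosomes. For PPARD, VDR, RARA and NR1D1 the nearest NCI-H1993 peak was 546, 1373, 545 and 802 kb from the span, and for NR2F2 the nearest NCI-H2347 peak was 1749 kb away. Each of these nearest peaks overlapped a peak of the line that had the gene peak, and RARA and NR1D1 had the same one. Over the whole lists, 34.2% of NCI-H1993 peaks and 21.7% of NCI-H2347 peaks overlapped a peak of the other list. Measured from the peaks, the 9 peaks at these 5 genes were all at least 449 kb from the nearest peak of the other list. From the centres of all 256 kb windows, the nearest NCI-H1993 peak was a median of 1070 kb away (quartiles 387 and 2420 kb) and the nearest NCI-H2347 peak 767 kb (265 and 1780 kb). All 5 distances from the spans lie within the quartiles of their list. The comparison is rough, since the edge of a span and the centre of a window are unlike starting points. The windows also include regions with few genes. The 5 distances are therefore read as no more than the absence of a nearby peak. At the limit of the rule, the outermost counted peaks were the VDR and RARA peaks of NCI-H2347 at 96 kb. The next peaks beyond it were a VDR peak at 117 kb, chr12:48415466-48416128 with a score of 86.21, and a RARA peak at 161 kb, chr17:38674398-38675120 with a score of 57.91. In NCI-H1993 the outermost counted peak was at 31 kb and the next lay 450 kb from NR2F2.

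The receptor gene peaks of NCI-H2347 included 2 strong calls and several near the threshold. In NCI-H2347 the 9 scores ran from 50.58 to 287.42 with a median of 64.07, against 77.11 over the whole list, and 6 of 9 were below the list's median. Their median percentile in the list was 33.9, but 50.6 with windows of 50 kb and 28.4 with 200 kb, so a position below the middle of the list depends on the window. A score of at least 100 was reached at VDR and PPARD, 2 of 9 peaks or 22.2% (95% Wilson interval 6.32% to 54.7%, counting error only), against 33.0% of the list. The 3 scores of NCI-H1993 were 53.52, 75.42 and 80.11, against a list median of 69.82. None of these 3 reached 100 (0 of 3, Wilson interval 0% to 56.1%), against 23.8% of the list. The score is the authors' own value per peak, and it was used only for ranks within a list.

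**Figure D3:**
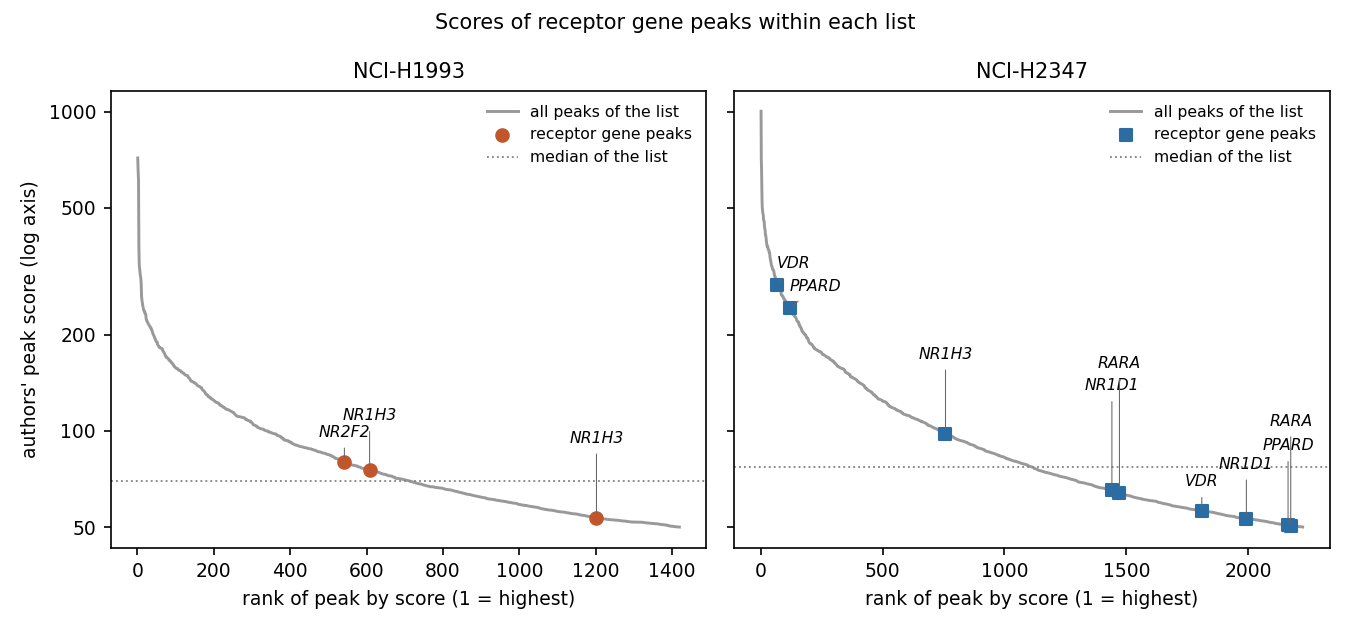
Score of every peak against its rank in each list (grey line, logarithmic score axis), with the receptor gene peaks marked and named and the list median dotted. The VDR and PPARD peaks of NCI-H2347 stand at ranks 67 and 119, and 6 of its 9 marked peaks are below the dotted line.

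Sharing between the lists rested on NR1H3 alone. The NR1H3 site made 1 of 3 NCI-H1993 peaks (33.3%, Wilson interval 6.15% to 79.2%), where 34.2% of the list overlapped an NCI-H2347 peak by at least 1 bp. It made 1 of 9 NCI-H2347 peaks (11.1%, interval 1.99% to 43.5%), where the list's share was 21.7%. Both intervals include the list's share. Most receptor gene peaks were under the median width of their list. All 3 in NCI-H1993 were under its median of 731 bp, and 8 of 9 in NCI-H2347 under its median of 832 bp. The exception was the strong PPARD peak. The NR1H3 site counts in both lists, and widths were not compared among peaks of like score.

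Inside the gene span lay 2 of 3 peaks in NCI-H1993, at NR1H3 and NR2F2, and 3 of 9 in NCI-H2347, the PPARD pair and the NR1H3 site. The NR2F2 peak is at the very edge of a span known to the nearest kb, so its place inside is uncertain. The other peaks were outside, and the 3′ side held 4 of these 6 in NCI-H2347, at VDR, NR1D1 and RARA. The spans took up from 8 kb of a 208 kb window (NR1D1) to 115 kb of a 315 kb window (RXRA). Both sides were equally wide, at 100 kb. The counts were not tested against these widths, and no pattern of placement is read from so few peaks. The lists differed in length, and this touches the counts. With the NCI-H2347 list limited to its 1419 highest-scoring peaks, the length of the NCI-H1993 list, 3 of its 9 receptor gene peaks were left, where 63.8% of all its peaks were. These were the strong PPARD peak, the NR1H3 site and the VDR peak beyond the 3′ end. NCI-H2347 then had peaks at 3 of 8 genes, against 10.1% of 256 kb windows, and NCI-H1993 at 2 of 8.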

How the data were processed

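PPARG ChIP-seq peaks of 1 library per cell line were analysed. Each deposited list gave chromosome, start, end, name and the authors' score per peak. Per the submitters' processing notes, MACS 1.4.2 and build hg19 were used. For the aligner, the filters, the threshold and the handling of input, the sources used here give nothing. The deposited score was used for ranks and filters within a list. Read depth is unknown.

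Starts were made 1-based. The hg19 gene spans, in kb, came with the rule that chose the members, so distances are good to about 1 kb. Peaks were assigned by midpoint, and called shared with at least 1 bp of overlap. Strand came from RefSeq's promoter table, which matched 7 of 8 genes, and for VDR from general knowledge. RefSeq sequences and neighbours are on GRCh38.p14, and no coordinate was converted. The assembly of hg19 was not used here, so no sequence under a peak is shown. All 8 genes and every counted peak are named, with the nearest peak elsewhere. The members and lists were chosen with earlier results of these data known. Shares carry 95% Wilson intervals. Alternatives were windows of 50 and 200 kb, other overlap rules, a score of at least 100 and lists of equal length. The code was tested on simulated lists. Python 3.11.15, pandas 2.3.3, numpy 2.4.6, scipy 1.17.1 and matplotlib 3.10.9 were used.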

Additional observations from a re-analysis of the deposited data

How the results depend on the processing

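Of 42 alternative values, 33 stayed within 1.5 times the reported count or within the spread of the members. This number overstates stability. Cutting the longer list could not change the NCI-H1993 peak and gene counts, and the NR1H3 site entered once per line. The spread of the members was wide, so the median percentile of NCI-H2347 counted as unchanged at 50.6 and 28.4, against 33.9. With a score of at least 100, NCI-H1993 had 0 peaks at 0 genes and NCI-H2347 had 2 peaks at 2 genes, and 0 peaks were shared in either list. With lists of equal length, NCI-H2347 had 3 peaks at 3 genes, where 63.8% of its whole list was kept. The receptor gene peaks that dropped out scored 50.58 to 65.23. Counting peaks inside the span or within 10 kb of it, an alternative chosen after seeing the data, gave 5 peaks in NCI-H2347. Windows of 50 and 200 kb gave 6 and 12 peaks there and 3 and 3 in NCI-H1993. The NR1H3 site was shared under all 3 other overlap rules. No paired analysis was possible because each line had a single ChIP library. Depth is unknown, so a gene without a peak cannot be read as unbound.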
